A study of Mus musculus with 9 samples.

Results

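Collagen processing and crosslinking enzymes were described by the RNA of 10 genes listed by name, all present among the 28481 genes of the table. They were the hydroxylases P4ha1, Plod1 and Plod2, the chaperone Serpinh1, the propeptide-processing genes Pcolce and Bmp1, and the lysyl oxidases Lox, Loxl1, Loxl2 and Loxl3. RNA sequencing was done on whole epididymal white adipose tissue of mice, with 5 Control libraries and 4 UBKO libraries, the latter with a knockout of Ctnnb1 (beta-catenin) driven by Ucp1-cre. Both groups had been given CL316,243, an agonist of the beta3-adrenergic receptor, and no library without the agonist was analysed here. The Cre acts in cells that express Ucp1, the uncoupling protein of thermogenic adipocytes, whereas the RNA came from every cell of the fat pad. In such bulk tissue, fewer cells of a type and less RNA per cell cannot be told apart. The labels used here give no age, and do not say that each library came from its own animal, so a p-value here weighs a difference against a spread between libraries that may be technical.

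A fibrillar collagen is made as a procollagen chain in the endoplasmic reticulum, where prolyl 4-hydroxylase stabilises the triple helix, lysyl hydroxylases modify lysines that later form crosslinks, and the chaperone HSP47 binds the folded helix. After secretion the C-terminal propeptide is cut off, fibrils assemble, and lysyl oxidases convert lysines to the aldehydes from which crosslinks form. In adipose tissue most fibrillar collagen is made by fibroblasts and adipocyte progenitors, and the network around adipocytes is remodelled when the fat pad expands or becomes fibrotic.

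RNA of most of these enzymes was lower in UBKO fat. All 10 members were among the 16123 genes tested with edgeR's quasi-likelihood test at a Benjamini-Hochberg adjusted p of 0.05. Of them, 7 were lower and 0 were higher, where 7.56% of all tested genes were lower. The 7 were Plod1, Pcolce, Bmp1, Lox, Loxl1, Loxl2 and Loxl3. The log2 differences (UBKO minus Control) ran from -1.70 for Loxl3 to -0.26 for Serpinh1, with a median of -0.77, against -0.005 for all tested genes. For 6 members every UBKO library lay below every Control library in CPM (counts scaled to library size, by TMM), as for 9.11% of tested genes. The lysyl oxidases and the propeptide-processing genes had the larger estimates, and the hydroxylases and the chaperone the smaller ones.

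**Figure D1:**
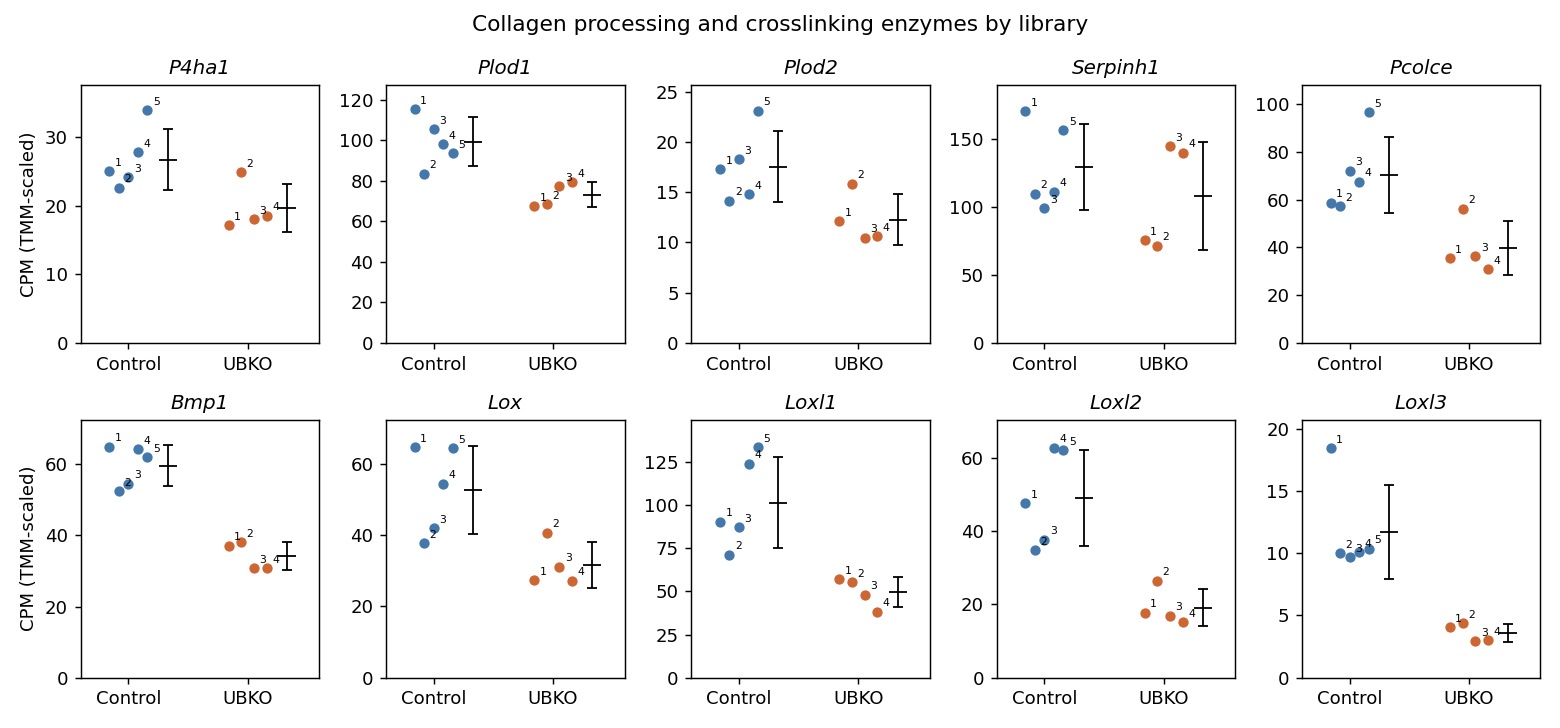
Level of each of the 10 genes by library, in CPM scaled by TMM on linear axes from 0; points are libraries numbered by replicate, and bars give the mean and SD of 5 Control and 4 UBKO libraries. The groups are apart for Plod1, Pcolce, Bmp1, Loxl1, Loxl2 and Loxl3 and overlap for P4ha1, Plod2, Serpinh1 and Lox, and Serpinh1 has 2 low and 2 high UBKO libraries.

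Some libraries were low or high for several members. Control replicate 2 was the lowest Control library for 8 of 10 members, and UBKO replicate 2 the highest UBKO library for 7 of 10. The highest Control library was replicate 1 for 5 members, replicate 5 for 4 and replicate 4 for 1, and the lowest UBKO library was replicate 4 for 5 members and was spread over the other 3 for the rest. Summed over the members, the level was 493.5 to 736 CPM in Control and 351 to 416 CPM in UBKO libraries. The highest UBKO sum was in the library labelled UBKO replicate 3, where Serpinh1 gave 144.5 CPM, against 71.5 CPM in UBKO replicate 2. The library labelled UBKO replicate 3 was the highest UBKO library for 1 of 10 members and the lowest for 2. UBKO replicate 2 had the highest sum of 9 mesothelial markers among UBKO libraries, 338 CPM against 94.9 to 187 CPM. Much of it was Krt8 and Krt18, at 107 and 49.1 CPM against at most 3.08 and 2.80 CPM in the other UBKO libraries. Upk3b was higher in the library labelled UBKO replicate 3 (70.0 against 57.7 CPM). Of the stromal progenitor markers, Pi16 was highest in UBKO replicate 2, 28.6 CPM against 5.91 to 8.39 CPM in the other UBKO libraries. Ly6a was the lowest of the UBKO libraries there, 56.8 CPM against 73.5 to 115 CPM. That list summed to 1013 CPM there against 854 to 1010 CPM. The part of these markers' cells in the members' levels was not tested.

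Depth ran from 15308480 to 17632709 gene counts per library. Control replicates 1 and 2 held 2.33% and 2.08% of their counts in 10 epididymal epithelium markers, such as Gpx5 and Lcn8, which summed to at most 1.80 CPM in every other library. Without these libraries 6 members were lower (4.9% of tested genes), with Lox no longer called (log2 difference -0.77, edgeR adjusted p = 0.0568). Without UBKO replicate 2 as well 7 were lower (5.59%), P4ha1 among them and Plod1 not (edgeR adjusted p = 0.0406 and 0.0766). Ctnnb1, the targeted gene, stood at 276 to 360.4 CPM in Control libraries and at 180 to 210 CPM in UBKO replicates 1, 2 and 4. With 307 CPM, the library labelled UBKO replicate 3 lay inside the Control range, and over all libraries the log2 difference of Ctnnb1 was -0.48 (SE 0.17, edgeR adjusted p = 0.0976). The labels used here do not say which exons were deleted, and the directions below include that library.

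The number of members called depended on single libraries. It was 4 without Control replicate 4, Control replicate 5 or UBKO replicate 1 (5.71%, 4.79% and 4.3% of tested genes lower). It was 3 without the library labelled UBKO replicate 3 or without UBKO replicate 4 (3.63% and 3.68%), and 8 without UBKO replicate 2 (6.99%). Bmp1, Loxl2 and Loxl3 passed in all 9 fits that left out 1 library each, Loxl1 in 7, Pcolce in 4, Lox in 3 and Plod1 in 2, and no member changed sign in these fits. DESeq2's Wald test called 7 members lower (11.4% of genes with an adjusted p). With scaling by total counts the median over all genes was -0.39 and that over the members -1.16 in log2 units, and 9 members were called lower (27.8%).

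Promoter sequence is shown for some members only, and Lox is not among them. Windows of 4 members come from the RefSeq table (GRCm38.p6), each from 250 bases before to 50 bases after the gene start. The windows were not picked by test result. P4ha1 and Serpinh1, textbook targets of low oxygen and of heat shock, did not pass the test, while Plod1 and Pcolce fell. The windows are chr10:59323046-59323345 on the plus strand for P4ha1 and, on the minus strand, chr4:147936727-147937026 for Plod1, chr7:99353190-99353489 for Serpinh1 and chr5:137611355-137611654 for Pcolce. The RefSeq start of Pcolce lies inside the gene as the deposited coordinates give it. Each window is printed 5′ to 3′ along the gene. Capitals mark matches on either strand to ACGTG or GCGTG (the core of hypoxia response elements), GGGCGG (known from GC boxes), TATAAA (known from TATA boxes) and GAANNTTC or TTCNNGAA (paired units of heat shock elements).
P4ha1: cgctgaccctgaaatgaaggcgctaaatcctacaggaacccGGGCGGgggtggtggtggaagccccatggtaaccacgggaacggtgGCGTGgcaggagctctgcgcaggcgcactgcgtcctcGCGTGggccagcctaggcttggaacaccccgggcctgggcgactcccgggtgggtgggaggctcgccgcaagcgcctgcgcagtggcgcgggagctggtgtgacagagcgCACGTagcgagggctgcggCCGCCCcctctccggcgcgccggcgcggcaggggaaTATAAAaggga
Plod1: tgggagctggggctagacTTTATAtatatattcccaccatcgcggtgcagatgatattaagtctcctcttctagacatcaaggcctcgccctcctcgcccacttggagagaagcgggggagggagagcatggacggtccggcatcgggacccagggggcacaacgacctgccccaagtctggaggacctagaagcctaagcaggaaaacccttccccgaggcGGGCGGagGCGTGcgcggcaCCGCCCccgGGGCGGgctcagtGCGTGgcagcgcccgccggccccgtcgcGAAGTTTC
Serpinh1: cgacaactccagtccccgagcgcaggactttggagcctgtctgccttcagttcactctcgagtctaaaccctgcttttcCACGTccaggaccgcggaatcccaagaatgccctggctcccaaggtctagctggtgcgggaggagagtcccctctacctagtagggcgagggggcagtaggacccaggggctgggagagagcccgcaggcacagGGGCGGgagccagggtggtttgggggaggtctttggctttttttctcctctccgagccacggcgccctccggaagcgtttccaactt
Pcolce: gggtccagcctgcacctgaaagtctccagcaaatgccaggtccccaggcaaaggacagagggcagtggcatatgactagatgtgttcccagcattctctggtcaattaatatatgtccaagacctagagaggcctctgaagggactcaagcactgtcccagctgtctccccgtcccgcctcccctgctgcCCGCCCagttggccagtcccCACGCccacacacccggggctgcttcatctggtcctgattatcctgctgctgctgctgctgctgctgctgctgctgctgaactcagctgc
The hypoxia core was found in all 4 windows, as ACGTG at 1 place each in P4ha1 and Serpinh1 and as GCGTG at 2 places each in P4ha1 and Plod1 and 1 in Pcolce. Of 32851 RefSeq windows of this length, 19.6% held ACGTG and 32.4% GCGTG on either strand. The share holding either form was not counted, so the 4 windows have no background for the core in either form. GGGCGG was found in all 4 windows and in 35.7% of all windows, and TATAAA in P4ha1 and Plod1 and in 13.6% of all windows. A heat shock pair, GAANNTTC, was found in the Plod1 window and in 7.86% of all windows, and TTCNNGAA in 0 of the 4 and in 8.52%. Matches did not overlap one another in these 4 windows. G and C made up 59.3% to 70.3% of their bases, against a median of 52.7% over all windows. A match describes letters in the window and not a bound site.

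The 3 hydroxylases had similar log2 differences, and Plod1 passed the test while P4ha1 and Plod2 did not. P4ha1 (ENSMUSG00000019916, mm10 chromosome 10, 59323296 to 59373304) encodes a catalytic subunit of prolyl 4-hydroxylase. It had 25.1, 22.7, 24.2, 27.8 and 33.9 CPM in Control replicates 1 to 5 and 17.2, 24.9, 18.1 and 18.6 CPM in UBKO replicates 1 to 4. UBKO replicate 2 lay among the Control libraries, and the other 3 UBKO libraries lay below all of them. The log2 difference of P4ha1 was -0.44 (SE 0.15, edgeR adjusted p = 0.0941), and without UBKO replicate 2 it was -0.57 (edgeR adjusted p = 0.0421).

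Plod1 (ENSMUSG00000019055, chromosome 4, 147909753 to 147936767) encodes lysyl hydroxylase 1, which acts on lysines of the triple helix. Its levels were 115, 83.4, 105, 98.1 and 93.5 CPM in Control replicates 1 to 5 and 67.5, 68.3, 77.4 and 79.4 CPM in UBKO replicates 1 to 4. The groups did not overlap, and Control replicate 2 came closest to the UBKO libraries. Plod1 fell by 0.44 in log2 units (SE 0.11), with a mean of 99.1 ± 12.1 CPM in Control (SD, n = 5) and 73.1 ± 6.12 CPM in UBKO libraries (SD, n = 4) and an edgeR adjusted p of 0.0365. The call lay near the threshold, with edgeR adjusted p between 0.0665 and 0.105 without Control replicate 1, 4 or 5 or without any 1 of the 4 UBKO libraries.

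Plod2 (ENSMUSG00000032374, chromosome 9, 92542223 to 92608428) encodes lysyl hydroxylase 2, which acts on lysines of the telopeptides at the chain ends. It had 17.3, 14.2, 18.3, 14.8 and 23.1 CPM in Control replicates 1 to 5 and 12.1, 15.9, 10.5 and 10.6 CPM in UBKO replicates 1 to 4. UBKO replicate 2 was again inside the Control range and the other UBKO libraries below it. The log2 difference of Plod2 was -0.51 (SE 0.18, edgeR adjusted p = 0.0989), and -0.66 without UBKO replicate 2 (edgeR adjusted p = 0.0498).

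Serpinh1 (ENSMUSG00000070436, chromosome 7, 99345376 to 99353239), which encodes the collagen chaperone HSP47, was the member with the smallest difference. Its levels were 170.5, 109.7, 99.0, 111 and 156 CPM in Control replicates 1 to 5 and 75.6, 71.5, 144.5 and 139.7 CPM in UBKO replicates 1 to 4. UBKO replicates 1 and 2 lay below every Control library, and the library labelled UBKO replicate 3 and UBKO replicate 4 lay between the Control libraries. The log2 difference was -0.26 (SE 0.26, edgeR adjusted p = 0.554), and the coefficient of variation was 36.8% among UBKO and 24.6% among Control libraries. No fit that left out 1 library called Serpinh1, and the lowest edgeR adjusted p among them was 0.390, without the library labelled UBKO replicate 3 (log2 difference -0.43).

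Both propeptide-processing genes fell, by similar amounts on the log2 scale. Bmp1 (ENSMUSG00000022098, chromosome 14, 70474558 to 70520234) encodes the procollagen C-proteinase. It had 65.0, 52.4, 54.5, 64.3 and 62.0 CPM in Control replicates 1 to 5 and 37.1, 38.1, 30.8 and 30.7 CPM in UBKO replicates 1 to 4. All UBKO libraries lay below all Control libraries, and replicates lay close together, with coefficients of variation of 9.72% in Control and 11.6% in UBKO libraries. Bmp1 fell by 0.80 in log2 units (SE 0.11), with a mean of 59.6 ± 5.80 CPM in Control (SD, n = 5) and 34.2 ± 3.97 CPM in UBKO libraries (SD, n = 4) and an edgeR adjusted p of 0.00293.

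Pcolce (ENSMUSG00000029718, chromosome 5, 137605103 to 137613784) encodes the extracellular enhancer that binds the C-propeptide and speeds its removal. Its levels were 58.8, 57.3, 72.1, 67.5 and 96.7 CPM in Control replicates 1 to 5 and 35.4, 56.3, 36.2 and 30.8 CPM in UBKO replicates 1 to 4. The groups were apart by a narrow margin, with UBKO replicate 2 just under Control replicate 2. Pcolce fell by 0.83 in log2 units (SE 0.21; edgeR adjusted p = 0.0344). The call ended without Control replicate 4, Control replicate 5 or UBKO replicate 1 (edgeR adjusted p = 0.0608, 0.0659 and 0.0986), and likewise without the library labelled UBKO replicate 3 or UBKO replicate 4 (edgeR adjusted p = 0.104 and 0.105).

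All 4 lysyl oxidases among the members fell, with point estimates that grew in the order Lox, Loxl1, Loxl2 and Loxl3. Lox (ENSMUSG00000024529, chromosome 18, 52516067 to 52529867) encodes the founding enzyme of the family, which oxidises lysines in collagen and elastin. It had 64.5, 37.7, 42.0, 54.3 and 64.2 CPM in Control replicates 1 to 5 and 27.4, 40.6, 31.1 and 27.1 CPM in UBKO replicates 1 to 4. UBKO replicate 2 lay above Control replicate 2, and the other UBKO libraries lay below every Control library. Lox fell by 0.74 in log2 units (SE 0.20; edgeR adjusted p = 0.0407). The call ended without Control replicate 1, 4 or 5 (edgeR adjusted p = 0.0913, 0.0772 and 0.0883) and without UBKO replicate 1, the library labelled UBKO replicate 3 or UBKO replicate 4 (edgeR adjusted p = 0.113, 0.108 and 0.122).

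Loxl1 (ENSMUSG00000032334, chromosome 9, 58287738 to 58313186) encodes a family member known for its part in the upkeep of elastic fibres. Its levels were 90.4, 71.3, 87.2, 124 and 133.6 CPM in Control replicates 1 to 5 and 57.2, 55.3, 48.1 and 38.2 CPM in UBKO replicates 1 to 4. The groups did not overlap, and Control replicates 4 and 5 were the highest libraries. Loxl1 fell by 1.03 in log2 units (SE 0.20; edgeR adjusted p = 0.0134). The call ended narrowly without the library labelled UBKO replicate 3 or UBKO replicate 4 (edgeR adjusted p = 0.0522 and 0.0501).

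Loxl2 (ENSMUSG00000034205, chromosome 14, 69609068 to 69695834) encodes a lysyl oxidase with scavenger receptor domains that acts on collagen of basement membranes. It had 47.7, 34.8, 37.6, 62.7 and 62.0 CPM in Control replicates 1 to 5 and 17.8, 26.4, 16.9 and 15.2 CPM in UBKO replicates 1 to 4. Every UBKO library lay below the lowest Control library, and UBKO replicate 2 came closest. Loxl2 fell by 1.36 in log2 units (SE 0.23), with a mean of 49.0 ± 13.1 CPM in Control (SD, n = 5) and 19.1 ± 5.01 CPM in UBKO libraries (SD, n = 4) and an edgeR adjusted p of 0.00729.

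Loxl3 (ENSMUSG00000000693, chromosome 6, 83034173 to 83052562), of the same subfamily, was the least abundant member. Its levels were 18.4, 10.03, 9.70, 10.1 and 10.4 CPM in Control replicates 1 to 5 and 4.04, 4.40, 2.94 and 2.99 CPM in UBKO replicates 1 to 4. Control replicate 1 stood above the other Control libraries, which lay close together, and every UBKO library lay below them. Loxl3 fell by 1.70 in log2 units (SE 0.25; edgeR adjusted p = 0.00349), the largest estimate among the members, resting on 1092 counts over the Control and 214 over the UBKO libraries.

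Loxl2 and Loxl3 each overlap a gene on the other strand. The strandedness of the library kit was not given in the sources used here, and reads from both genes of such a pair cannot be told apart. Genes overlapping Loxl2 held 45.9% as many counts, nearly all of them from the antisense gene Gm27177. Its log2 difference was -1.79 (SE 0.72, edgeR adjusted p = 0.137), and its order over libraries was another, with its highest level in Control replicate 2 (48.5 CPM) and 17.6 CPM in the library labelled UBKO replicate 3. Htra2, which overlaps Loxl3, held 222% as many counts as Loxl3 and had a log2 difference of -0.24 (SE 0.14, edgeR adjusted p = 0.291). Genes overlapping the other 8 members held at most 3.62% as many counts, that share being for Plod2.

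**Figure D2:**
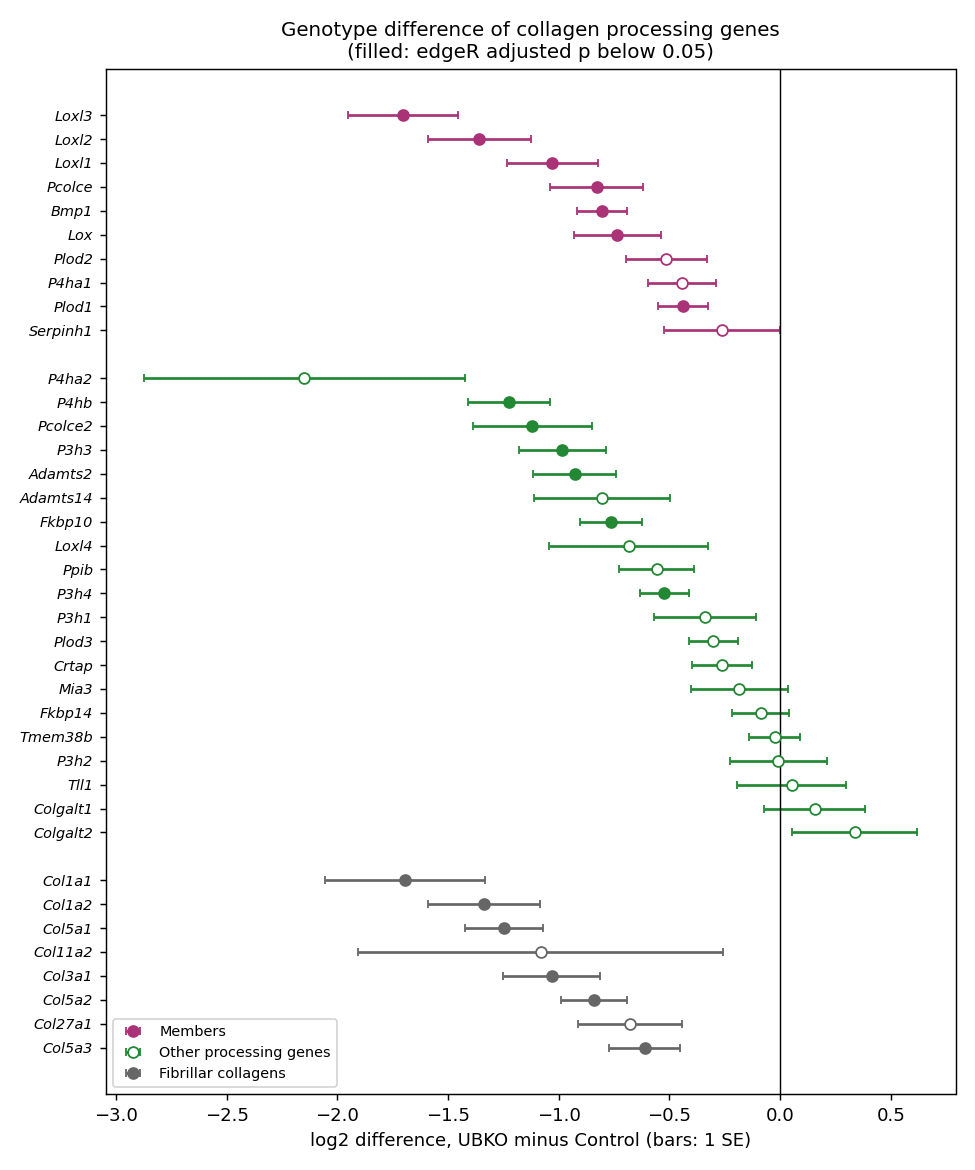
Log2 difference, UBKO minus Control, for the 10 members, 20 other collagen processing genes and 8 fibrillar collagen chains from the edgeR fit, with bars of 1 SE; filled points passed at an adjusted p of 0.05. All members lie left of 0, from -1.70 for Loxl3 to -0.26 for Serpinh1, and no filled point lies right of 0.

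Per length, in the deposited FPKM (a level per gene length and library size), lysyl oxidases held both ends of the order of levels. In Control libraries Loxl1 led with 33.8 ± 8.38 FPKM (SD, n = 5), followed by Serpinh1 (19.6 ± 6.54 FPKM), Plod1 (13.6 ± 2.52 FPKM) and Pcolce (11.4 ± 2.58 FPKM). In the middle stood Loxl2 (8.91 ± 2.34 FPKM), Lox (6.82 ± 2.03 FPKM) and Bmp1 (5.34 ± 0.837 FPKM), and at the low end P4ha1 (4.52 ± 0.838 FPKM), Plod2 (2.63 ± 0.606 FPKM) and Loxl3 (2.39 ± 1.02 FPKM). Ranges of neighbours in that order overlapped over the libraries except between P4ha1 and Plod2.

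UBKO levels ran from 13.1 ± 2.85 FPKM (SD, n = 4) for Loxl1 to 0.565 ± 0.148 FPKM for Loxl3, with some changes of order. Loxl1 lay above Serpinh1 in 2 of 4 UBKO libraries, against 5 of 5 Control libraries, with 12.2 against 16.2 FPKM in the library labelled UBKO replicate 3 and 9.46 against 15.4 FPKM in UBKO replicate 4. Lox and Loxl2 changed places (3.19 ± 0.826 and 2.74 ± 0.896 FPKM), as did P4ha1 and Bmp1 (2.61 ± 0.616 and 2.39 ± 0.408 FPKM), and the ranges within both pairs overlapped. FPKM is scaled to the library total and not by TMM, which made its group differences larger than those in CPM. On that scale every UBKO library was also below every Control library for Lox (2.58 to 4.40 against 4.90 to 9.48 FPKM) and for P4ha1 (2.29 to 3.54 against 3.71 to 5.83 FPKM). The share of all genes so placed in FPKM was not counted. With scaling by total counts 27.8% of tested genes were called lower, so these 2 are not shown to stand out.

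**Figure D3:**
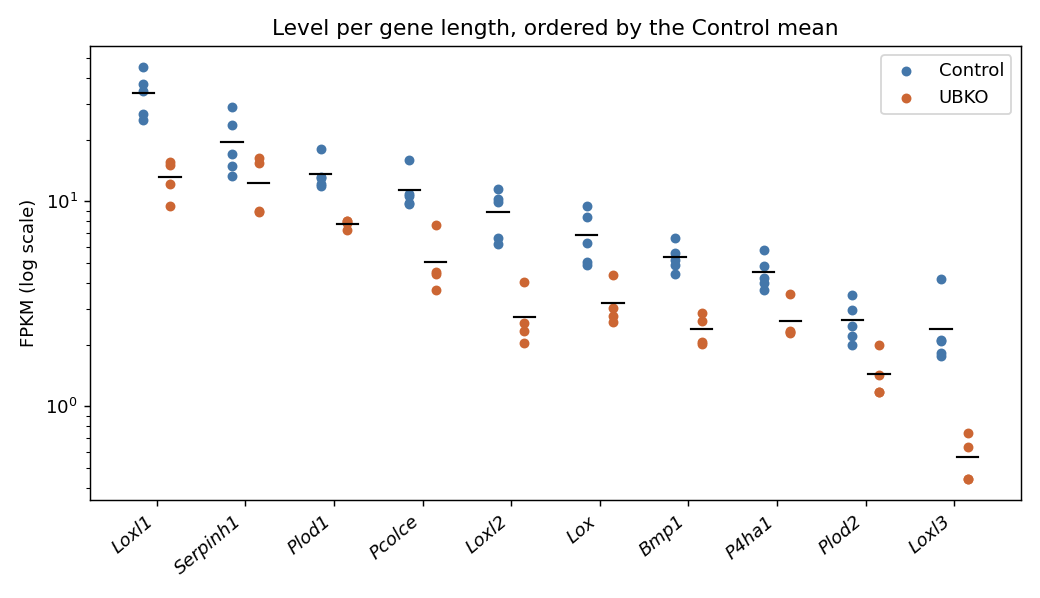
FPKM of each member on a log axis, ordered by the Control mean; points are the 5 Control and 4 UBKO libraries and lines the group means. Loxl1 has the highest and Loxl3 the lowest mean in both groups, at 33.8 and 2.39 FPKM in Control and 13.1 and 0.565 FPKM in UBKO libraries.

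The make-up of the lysyl oxidase family was described as shares of summed FPKM over Lox, Loxl1, Loxl2, Loxl3 and Loxl4. Loxl1 held 64.6% ± 3.35 (SD, n = 5) in Control and 66.1% ± 3.86 (SD, n = 4) in UBKO libraries. The share of Loxl2 was 16.9% ± 0.965 in Control and 13.7% ± 1.77 in UBKO libraries, and that of Lox ran from 11.2% to 16.1% and from 13.0% to 17.6%. Loxl3 held 3.09% to 7.15% in Control and 2.45% to 3.01% in UBKO libraries, the only share among those of the 4 members whose ranges were apart between the groups. Loxl4, which is no member, held 0.890% ± 0.255 in Control and 1.13% ± 0.278 in UBKO libraries.

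Ratios between paired enzymes need no scaling between libraries, and 0 of 5 pairs passed an exact two-sided permutation test over libraries, where the smallest p the design allows is 0.00794. The mean log2 ratio of Lox to Loxl1 was -0.94 ± 0.27 (SD, n = 5) in Control and -0.66 ± 0.28 (SD, n = 4) in UBKO libraries (exact permutation p = 0.183, adjusted over 5 pairs 0.714). For Loxl2 to Loxl3 it was 2.07 ± 0.54 and 2.39 ± 0.20 (exact permutation p = 0.310, adjusted 0.714). The differences between groups were 0.08 for Plod1 to Plod2 and 0.04 for Bmp1 to Pcolce (exact permutation p = 0.706 and 0.873, both adjusted 0.873).

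P4ha1 to P4ha2 differed by 1.03 on the log2 scale (exact permutation p = 0.429, adjusted 0.714), with log2 ratios of -1.78 and -1.87 in Control replicates 1 and 2 and of 0.92 to 1.44 in the other 7 libraries. P4ha2, another catalytic subunit of prolyl 4-hydroxylase, had 86.4 and 83.2 CPM in those Control libraries, the pair with the epididymal transcripts, and 8.14 to 13.0 CPM in the others. Without them the difference was -0.22 (exact permutation, adjusted p = 0.429), and that of Loxl2 to Loxl3 was -0.002 (exact permutation, adjusted p = 0.971).

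Some genes that act with the members were lower in UBKO fat. Of 23 other collagen processing genes 20 were tested, 6 were lower and 0 higher, where 7.56% of all tested genes were lower. Their median log2 difference was -0.43, and the 3 not tested (P4ha3, Adamts3 and Tll2) reached at most 1.04 CPM. P4hb, the beta subunit of prolyl 4-hydroxylase and also a protein disulfide isomerase, fell by 1.23 in log2 units (SE 0.19), with a mean of 517 ± 118 CPM in Control (SD, n = 5) and 221 ± 13.5 CPM in UBKO libraries (SD, n = 4) and an edgeR adjusted p of 0.00409. Fkbp10, a prolyl isomerase of the endoplasmic reticulum, fell by 0.76 (edgeR adjusted p = 0.0091), though Nt5c3b on the other strand held 34.9% as many counts. P3h3 and P3h4, which act with lysyl hydroxylase 1, fell by 0.98 and 0.52 (edgeR adjusted p = 0.0139 and 0.0171). Outside the cell, Adamts2, the procollagen N-proteinase, fell by 0.93, and Pcolce2, a relative of Pcolce, by 1.12 (edgeR adjusted p = 0.0147 and 0.0283). Without UBKO replicate 4 the list had 2 lower genes (3.68% of tested genes lower).

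Of 11 fibrillar collagen chains, the substrates of the enzymes, 8 were tested, with a median log2 difference of -1.06. Of these 6 were lower and 0 higher, where 7.56% of all tested genes were lower. Col1a1 had 840, 553, 490.0, 973 and 994 CPM in Control replicates 1 to 5 and 189, 428, 195 and 138 CPM in UBKO replicates 1 to 4. Every UBKO library lay below every Control library, and UBKO replicate 2 was the highest of them, as it was for Col1a2, Col3a1, Col5a1 and Col5a2. Col1a1 fell by 1.70 in log2 units (SE 0.36; edgeR adjusted p = 0.0175), Col1a2 by 1.34 (edgeR adjusted p = 0.011) and Col3a1 by 1.03 (edgeR adjusted p = 0.0176). Col5a1 and Col5a2, chains of collagen V, fell by 1.25 and 0.84 (edgeR adjusted p = 0.00313 and 0.00875). Col5a3 fell by 0.61 (edgeR adjusted p = 0.0378), with groups that overlapped. For Col5a3, UBKO replicate 2 was the lowest UBKO library, at 301 CPM against 316 to 441 CPM in the others. The list had 3 lower chains without the library labelled UBKO replicate 3 or without UBKO replicate 4 (3.63% and 3.68% of tested genes lower).

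To set the enzymes against their substrates, each library was also scaled by its summed counts of Col1a1, Col1a2 and Col3a1. Relative to these collagens 4 members were higher and 0 lower by edgeR's test, where 77.2% of all tested genes were higher and 1.62% lower. The median log2 difference was 0.50 for the members and 1.24 for all tested genes, so the members' share of higher genes lay below the background. Serpinh1 rose by 1.07 (SE 0.35), Plod1 by 0.83 (SE 0.31), P4ha1 by 0.81 (SE 0.27) and Plod2 by 0.72 (SE 0.30), with edgeR adjusted p of 0.0097, 0.0215, 0.0113 and 0.0339. The remaining 6 did not pass, with log2 differences from -0.45 for Loxl3 to 0.53 for Lox (edgeR adjusted p = 0.243 and 0.0682).

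Single libraries also set the number of members higher relative to collagen. It was 1 without UBKO replicate 4, where 66.5% of all tested genes were higher. It was 2 without Control replicate 4, Control replicate 5 or UBKO replicate 1 (71.9%, 71.4% and 65.0% of tested genes), and 2 without Control replicates 1 and 2 together (80.6%). It was 3 without Control replicate 1 or the library labelled UBKO replicate 3 (74.7% and 69.4%), 3 without Control replicates 1 and 2 and UBKO replicate 2 (85.6%), and 4 without Control replicate 2 or Control replicate 3 (81.3% and 79.8%). It was 6 without UBKO replicate 2 (78.4%), where Bmp1 and Lox passed as well (edgeR adjusted p = 0.0445 and 0.0312). In each of these fits the members' share of higher genes lay below that of all tested genes. P4ha1 kept its call in all 9 fits that left out 1 library. The call of Serpinh1 ended without UBKO replicate 4 (edgeR adjusted p = 0.0573). That of Plod1 ended without Control replicate 4 or 5, UBKO replicate 1, the library labelled UBKO replicate 3 or UBKO replicate 4 (edgeR adjusted p from 0.0531 to 0.0773). That of Plod2 ended without Control replicate 1, 4 or 5 or UBKO replicate 1 or 4 (edgeR adjusted p from 0.0582 to 0.105).

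Loxl2 varied little against collagen among Control libraries. It had 15.2, 15.4, 17.4, 17.1 and 16.4 counts per 1000 counts of Col1a1, Col1a2 and Col3a1 in Control replicates 1 to 5 and 18.1, 14.6, 14.0 and 14.7 in UBKO replicates 1 to 4. The groups overlapped, and UBKO replicate 1 was the highest of all libraries. The coefficient of variation of Loxl2 among Control libraries was 6.04% per collagen count and 26.8% in CPM, and the log2 difference relative to collagen was -0.09 (SE 0.26, edgeR adjusted p = 0.757). For the other members that coefficient ran from 12.7% to 32.9% per collagen count among Control libraries. Among UBKO libraries it was 12.2% for Loxl2, above Lox (8.77%) and Pcolce (9.30%). Summed over the members there were 173 to 255 counts per 1000 collagen counts in Control and 222.5 to 381 in UBKO libraries, with an overlap at UBKO replicate 2.

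**Figure D4:**
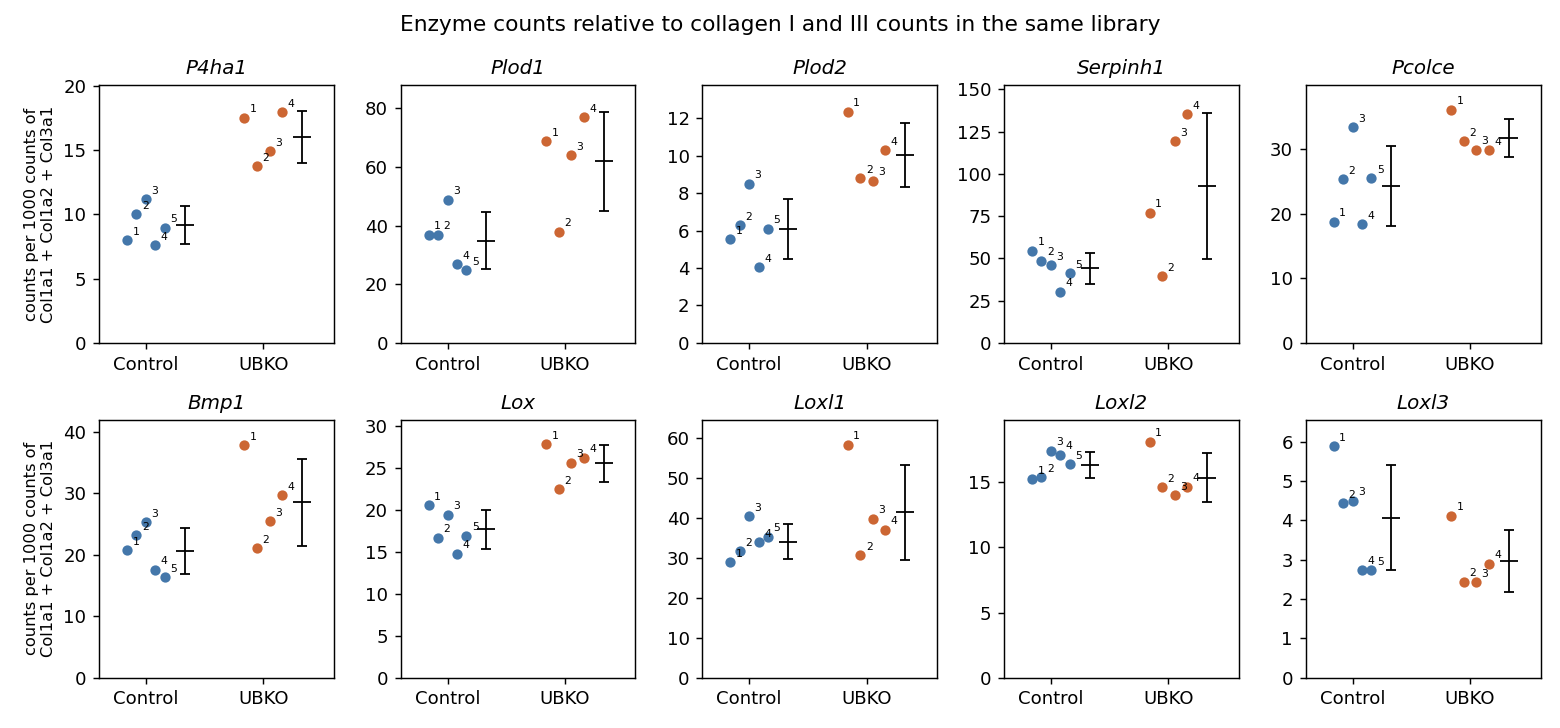
Counts of each member per 1000 counts of Col1a1, Col1a2 and Col3a1 in the same library, on linear axes from 0; points are libraries numbered by replicate, and bars give the mean and SD of 5 Control and 4 UBKO libraries. P4ha1 lies at 7.60 to 11.2 in Control and 13.8 to 17.97 in UBKO libraries, while Loxl2 lies at 15.2 to 17.4 and 14.0 to 18.1.

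Genes of the hypoxia response were set beside the members, since P4ha1, Plod2, Lox and Loxl2 are textbook targets of low oxygen. Of 14 other such genes, 2 were higher and 0 lower, where 3.88% of all tested genes were higher, and the median log2 difference was 0.13 (-0.24 with scaling by total counts, where 1 was higher and 3 lower). Pdk1, which restrains pyruvate entry into mitochondria, rose by 1.23 (SE 0.22, edgeR adjusted p = 0.00913), and Ldha, lactate dehydrogenase A, by 0.72 (SE 0.20, edgeR adjusted p = 0.0455). Vegfa, the angiogenic growth factor, had a log2 difference of 0.70 and Adm, adrenomedullin, of -0.65 (edgeR adjusted p = 0.0912 and 0.0773). The call count of the list was 1 without Control replicate 2, Control replicate 5 or any 1 of the UBKO libraries.

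Marker genes of some cell types differed between the groups, where 7.56% of all tested genes were lower and 3.88% higher. Of 11 stromal progenitor markers 3 were lower, and Dcn had a log2 difference of 0.03 (edgeR adjusted p = 0.910). Pdgfra had 113 and 105 CPM in Control replicates 1 and 2, the libraries with epididymal transcripts, 43.2 to 53.9 CPM in the other Control libraries and 23.5 to 27.4 CPM in UBKO libraries. The log2 difference of Pdgfra was -1.51 over all libraries and -0.94 when those Control libraries were left out (edgeR adjusted p = 0.0141 and 0.00542). Their summed level was 902 to 1324 CPM in Control and 854 to 1013 CPM in UBKO libraries. Of 10 macrophage markers 9 were lower, and they summed to 877.5 to 2063 CPM in Control and 224 to 332 CPM in UBKO libraries. Of 10 adipocyte markers 3 were higher (14050 to 28030 CPM against 23790 to 33580 CPM), of 7 endothelial markers 2 were higher (747 to 1181 CPM against 1088 to 1485 CPM), and of 8 smooth muscle and pericyte and 9 mesothelial markers 0 were called (510.1 to 872 against 839 to 1283 CPM, and 123 to 397 against 94.9 to 338 CPM). Without Control replicates 1 and 2, 1 adipocyte and 1 endothelial marker were called higher. Per 1000 counts of the stromal markers, the members summed to 489 to 646 counts in Control and 396 to 413 in UBKO libraries. The share of all genes so placed was not counted. Dcn held much of the stromal sum, at 444 to 660 CPM in Control and 511 to 620 CPM in UBKO libraries. Pdgfra and Cd55 each fell by 1.51, beyond the members' median log2 difference of -0.77. The other stromal markers had log2 differences from -0.62 for Lum to 0.52 for F3. The part of stromal cells, macrophages, adipocytes and the other cell types in the members' differences was not tested.

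In the authors' deposited table, 5 members were lower in UBKO at a q-value under 0.05 and 0 were higher, where 3.5% of the 28481 genes were lower. They were Loxl2, Loxl3, Loxl1, Bmp1 and Pcolce, with q-values of 0.000143, 0.000631, 0.00473, 0.0134 and 0.0418 in the authors' deposited table. Lox and Plod1, which passed edgeR's test, had q-values of 0.0862 and 0.401 in the authors' deposited table, by a test not given in the sources used here.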

How the data were processed

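The 9 mouse fat libraries, 5 Control and 4 UBKO, were grouped by sample title. Per the labels' protocols, a TruSeq RNA kit gave paired-end libraries, with the strandedness not given in the sources used here. HISAT2, SAMtools 1.3.1, Cuffdiff and the build mm10 are named per the submitters' processing notes, with their roles, the counter and the gene models not given in the sources used here. Per library, the authors deposited whole-number counts and FPKM, with 0 sample columns left unused here. Over 11102 genes the length implied by count and FPKM was constant across libraries, so the authors' FPKM is scaled to summed gene counts. The authors' own comparison, deposited with it, gives the log2 ratio of the mean FPKM values with a p-value and q-value.

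The test on counts was edgeR 4.0.16 under R 4.3.3 (filterByExpr by group, TMM, glmQLFit, glmQLFTest, genotype as the only term, two-sided, Benjamini-Hochberg adjustment over 16123 genes, threshold 0.05). The SE of a log2 difference came from the difference and its F statistic. Depth was 15308480 to 17632709 counts per library, which with the number of libraries limits the precision. No pair of replicates was a duplicate (lowest chi-square per degree of freedom 15.5). Promoter motifs were searched on both strands. Ratios used counts plus 0.5. Alternatives were DESeq2 size factors, total counts, no filter, a DESeq2 1.42.0 Wald test, limma 3.58.1 on log2(FPKM + 1) for genes at FPKM 1 or more in 4 or more libraries, the replicate number as a block, and libraries left out. The fits were tested on simulated data.

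The members and lists were chosen with earlier results of these data known. Named were all members, Ctnnb1, Col1a1, Col1a2, Col3a1, the called genes among the other processing genes (at most 8), up to 4 genes each of the collagen and hypoxia lists with the smallest p, and 9 markers. P4ha2, Gm27177, Htra2, Nt5c3b, Loxl4, Krt8, Krt18, Upk3b, Ly6a and the heat shock genes were added with their values known. So were Krt19, Msln, Upk1b, Gpm6a, Lrrn4, Wt1, Cd55, Lum, F3 and Col5a3.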

Additional observations from a re-analysis of the deposited data

Results flagged for a closer look

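Loxl3 in Control replicate 1 stood at 18.43 CPM, far above the other 4 Control libraries at 9.70 to 10.4 CPM, with a gap that exceeded Dixon's 95% critical value for 5 samples. Chance marks about 1 in 20 groups, and 30 groups were tested, so a single such library is no more than chance would give. Control replicate 1 also held epididymal transcripts, as did Control replicate 2, where Loxl3 was at 10.03 CPM. Without Control replicate 1 the log2 difference of Loxl3 was -1.46 (edgeR adjusted p = 0.00367).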

How the results depend on the processing

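All 10 members kept a negative log2 difference in each of the 17 alternatives. Members called lower numbered 3 to 8 over the 9 fits that left out 1 library, where 3.63% to 9.41% of tested genes were lower. They numbered 4 without a filter (2.84% of tested genes lower), 9 with limma (31.2%) and 2 with the replicate number as a block (3.45%). Genes called lower and higher over the whole table, 1219 and 626, were 4482 and 236 with total counts, 810 and 300 without a filter, 1894 and 1136 with DESeq2's Wald test, 3748 and 277 with limma, 782 and 240 without Control replicates 1 and 2, and 604 to 1495 and 152 to 954 with 1 library left out. Without UBKO replicate 2 as well, 411 were higher. Other collagen processing genes called lower were 13 with total counts, 10 with limma and 2 to 8 with 1 library left out, and fibrillar chains 3 to 6. Hypoxia genes called higher were 1 with total counts, without a filter, with limma and without Control replicates 1 and 2, and 1 to 3 with 1 library left out; those called lower were 3 with total counts, 1 with DESeq2 and 2 with limma. Relative to collagen, members called higher were 1 to 6 with 1 library left out and 2 without Control replicates 1 and 2. Log2 ratio differences turned negative without Control replicates 1 and 2 for P4ha1 to P4ha2 (-0.22, and -0.277 without UBKO replicate 2 as well) and for Loxl2 to Loxl3 (-0.0015 and -0.0648). With 1 library left out they ran from -0.0454 to 0.24 for Plod1 to Plod2, from -0.0700 to 0.162 for Bmp1 to Pcolce, from 0.553 to 1.38 for P4ha1 to P4ha2 and from 0.147 to 0.463 for Loxl2 to Loxl3. Without Control replicates 1 and 2 and UBKO replicate 2 they were 0.33 for Plod1 to Plod2 and 0.314 for Bmp1 to Pcolce. The causes were not tested. Same-numbered libraries deviated with correlations of -0.18, 0.53, 0.12 and 0.19, so the numbers were not taken as pairs, and 1 of 4 UBKO libraries correlated best with its own number. With the replicate block 556 genes were lower and 191 higher, 2 members, 1 other processing gene and 1 fibrillar chain were lower, 0 hypoxia genes were higher, 0 members were higher relative to collagen, and the log2 ratio differences of Plod1 to Plod2 and Bmp1 to Pcolce were -0.0454 and -0.0700. Loxl3, the least abundant member, had 214 counts over the UBKO libraries, so depth limits it most.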

Other observations

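Serpinh1, a gene known to be induced by heat shock, was set beside 12 heat shock genes chosen after its values were seen. Of these 2 were higher in UBKO and 0 lower, where 3.88% of all tested genes were higher and 7.56% lower. Their median log2 difference was 0.04. Dnaja1, a co-chaperone of HSP70, had 68.6 ± 7.17 CPM in Control (SD, n = 5) and 89.9 ± 3.76 CPM in UBKO libraries (SD, n = 4), with an edgeR adjusted p of 0.0331. Chordc1, a co-chaperone of HSP90, had 33.2 ± 1.77 and 42.0 ± 3.67 CPM (edgeR adjusted p = 0.039). Both were higher in all 4 UBKO libraries than in any Control library, and the share of all tested genes so placed was not counted. Within UBKO libraries, Dnaja1 and Chordc1 had replicates 1 and 2 below the library labelled UBKO replicate 3 and UBKO replicate 4, as Serpinh1 did. Levels in UBKO replicates 1 to 4 were 86.5, 87.3, 94.7 and 91.1 CPM for Dnaja1 and 41.99, 37.2, 46.0 and 42.8 CPM for Chordc1. Of the other listed heat shock genes only Hspe1 had that order. Hspa1a, an inducible HSP70 gene, had 4.04, 6.93, 5.81 and 5.14 CPM in those replicates, and Hspa1b had 12.4, 14.6, 16.3 and 11.4 CPM. Unlike Dnaja1 and Chordc1, Serpinh1 had a negative log2 difference (-0.26). The part of heat shock in the levels of Serpinh1 was not tested.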
